A study of Arabidopsis thaliana with 24 samples.

Results

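The 37 probe sets described here, which measure transcripts on an Arabidopsis array, gave a signal that rose with auxin in the wild type. By measured signal, they kept at least 50% of that rise when either ARF7 or ARF19 was mutated alone, and lost most of it when both were mutated. ARF7 and ARF19 are related transcription factors that carry out much of the gene activation by auxin in seedlings. Without auxin, Aux/IAA repressors bind these factors at auxin response elements. Auxin lets the TIR1/AFB receptors mark the repressors for breakdown, which frees the factors to activate.

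The probe sets were chosen by measured responses to the auxin indole-3-acetic acid (IAA), a response being the mean log2 signal with IAA minus that of the control. It had to be at least 1 in wild-type Columbia (Col). The lowest Col IAA array had to lie above the highest Col control array. In nph4-1, which is mutated in ARF7, and in arf19-1, which is mutated in ARF19, the response had to reach 0.5 of that of Col. In the nph4-1 arf19-1 double mutant it had to stay under 0.25 of that of Col. Of the 22810 probe sets of the array, 291 met the Col conditions, 101 of these also met that of nph4-1, 91 also that of arf19-1, and 39 also that of the double mutant. IAA30 and LBD16, the only ones of the 39 with a symbol that the rule leaves out, were then dropped, which left 37 probe sets, or 12.7% of the 291. Of the 37, 18 are paired with 1 gene and 19 are not listed in the annotation used. Those 19 are given by their probe set ID, and the omission by symbol could not be applied to them.

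Whole seedlings were 7 days old and had grown in liquid medium (1.5% sucrose, days of 16 h light and nights of 8 h). They were given 5 µM IAA, or ethanol alone as the control, and kept at 24 °C for 2 h. The 4 genotypes, all in the Columbia background, gave 8 groups of 3 arrays. The sources used here do not state the kind of mutation in either allele or whether the arrays of a group came from separate cultures, so the spread between arrays may be technical only. The annotation used pairs neither ARF7 nor ARF19 with a probe set, and both mutated genes were not analysed here.

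All values are the deposited log2 signals, which have a floor of 5.64. The array medians ran from 6.64 to 6.76, with 35.6% to 36.7% of values at the floor on each array. By array weights in limma, the arrays least like their groups were Col control 3 (0.185) and nph4-1 IAA 1 (0.144). Leaving out these arrays gave 39 probe sets under the same rule, 30 of them among the 37. Of the markers of seedling organs fixed for this work, 2 shoot genes (RCA and LHCB4.1) and 3 root genes (PYK10, EXPA7 and EXPA18) had a paired probe set. None of the 5 was at the floor on all arrays, and PYK10 had a group mean of at least 12.70.

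Because the responses of all 4 genotypes chose the 37 probe sets, those responses are described without a test. In Col they ran from 1.00 to 4.91 with a median of 1.53. The median was 1.02 in nph4-1, 1.48 in arf19-1 and 0.24 in the double mutant, beside medians of 0.00, 0.00, -0.01 and 0.00 over all 15757 probe sets tested. As a percentage of the Col response of the same probe set, nph4-1 kept a median of 63.7% (from 50.4% to 110.2%). For arf19-1 the median was 96.0% (from 52.8% to 157.4%), and for the double mutant 14.6% (from -22.2% to 24.6%). All 3 control arrays lay at the floor for 8 of the 37 in the double mutant, 7 in nph4-1, 4 in arf19-1 and 2 in Col. A response from such controls is a lower limit, so these percentages are not exact. For 3 of the 37 all 6 double-mutant arrays lay at the floor, and no response could be measured there. The response of arf19-1 was above that of Col for 17 probe sets and that of nph4-1 for 1. It was above the response of nph4-1 for 31 of the 37.

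**Figure D1:**
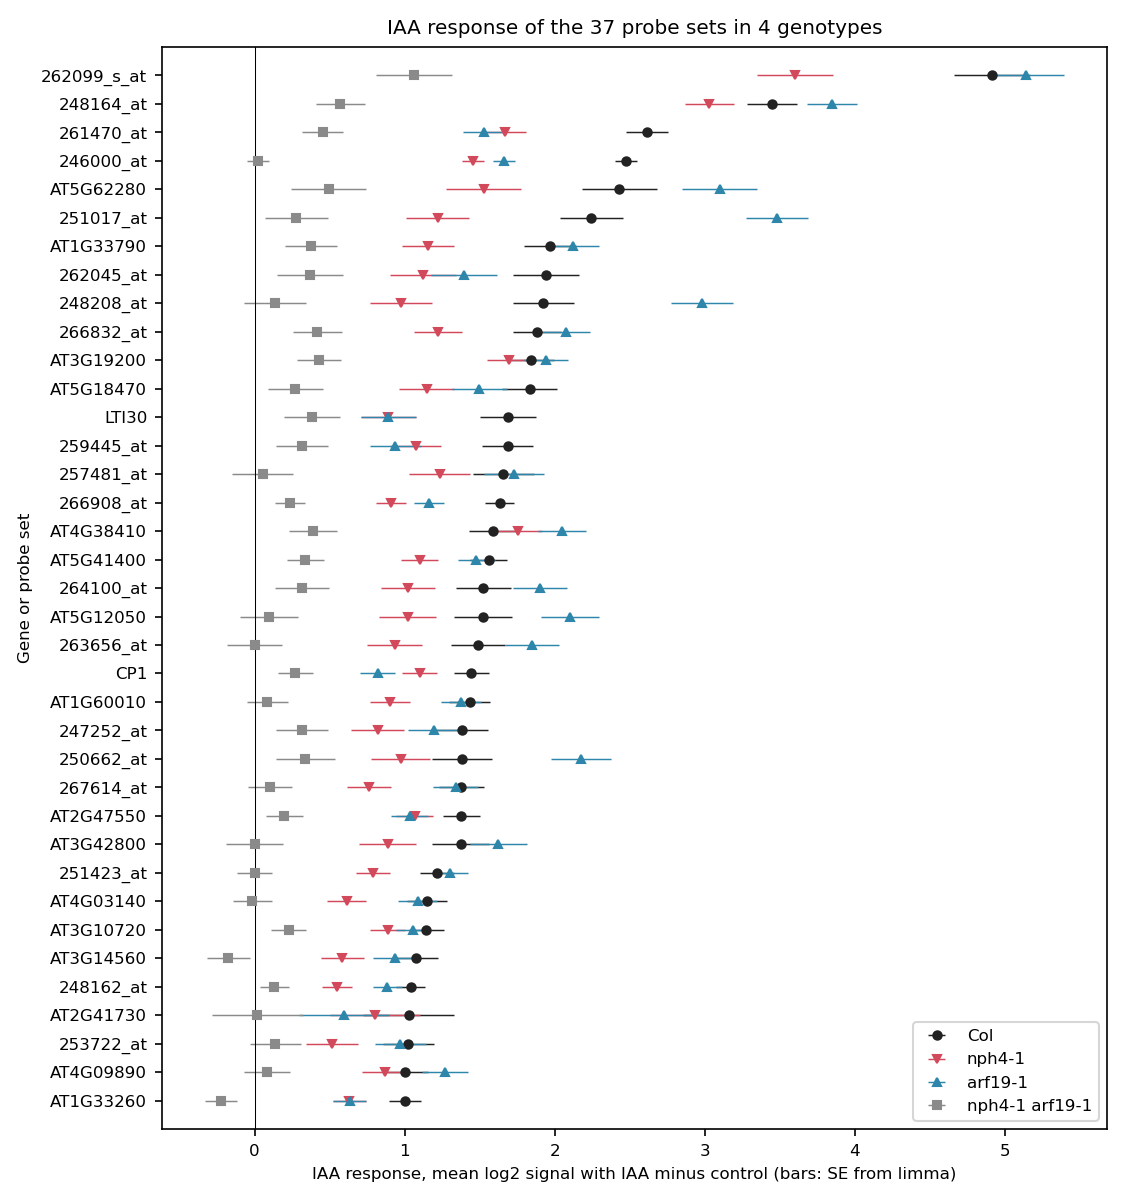
IAA response of each of the 37 probe sets (vertical axis, ordered by the Col response) as the log2 difference between IAA and control (horizontal axis). Points are Col, nph4-1, arf19-1 and the double mutant, 3 arrays per group, and bars are standard errors. The double-mutant points lie nearest 0, and in 31 rows the arf19-1 point lies to the right of the nph4-1 point.

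All 3 IAA arrays lay above all 3 control arrays for 36 of the 37 in nph4-1, against a background of 9.16% of all probe sets tested. The same held for 36 in arf19-1 (background 12.7%) and for 15 in the double mutant (background 5.58%). The rule used these responses, so nothing is read from these counts. The exception in both single mutants was AT2G41730.

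A pair of genes of the BIG GRAIN 1-like family, plant proteins named after a rice protein that promotes auxin transport and grain size, was among the members. AT5G12050 had Col log2 signals of 6.55, 6.55 and 7.33 without IAA and 8.55, 8.01 and 8.45 with IAA. In nph4-1 the signals were 5.70, 6.38 and 5.94 without IAA and 6.84, 7.09 and 7.14 with IAA, and in arf19-1 6.23, 6.68 and 6.32 without IAA and 8.35, 8.60 and 8.60 with IAA. The double mutant gave 5.64, 5.64 and 5.64 without IAA and 5.64, 5.71 and 5.88 with IAA, with every control array at the floor. AT5G12050 thus responded 2.88-fold in Col (SE 0.19 in log2), 2.03-fold in nph4-1 and 4.30-fold in arf19-1. In the double mutant all 6 arrays lay below the lowest Col control array.

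AT3G42800, the other gene of this family, had Col signals of 5.96, 5.64 and 6.73 without IAA and 7.34, 7.23 and 7.88 with IAA. All control arrays of the other 3 genotypes lay at the floor. With IAA the signals were 6.47, 6.51 and 6.61 in nph4-1 and 7.22, 7.04 and 7.56 in arf19-1. The rises were therefore at least 1.85-fold and at least 3.09-fold, beside at least 2.59-fold in Col (SE 0.19 in log2). The 3 double-mutant IAA arrays stayed at the floor. One Col control array also lay at the floor and Col control 3 was the highest, so the Col rise of this gene rests on an uneven control group.

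Pectin methylesterases remove methyl groups from the pectin of the cell wall, and 2 genes of this family were members. AT3G10720 was among the brighter ones, with Col signals of 9.25, 9.13 and 9.67 without IAA and 10.54, 10.31 and 10.63 with IAA. In nph4-1 it had 8.42, 8.58 and 8.53 without IAA and 9.31, 9.44 and 9.44 with IAA, in arf19-1 9.04, 9.03 and 8.87 without IAA and 9.93, 10.23 and 9.95 with IAA, and in the double mutant 8.12, 8.15 and 8.06 without IAA and 8.40, 8.24 and 8.37 with IAA. Its IAA arrays stood above its control arrays in every genotype, but from different levels. The double-mutant IAA mean lay 1.01 below the Col control mean in log2, and the responses were 1.14 in Col, 0.89 in nph4-1, 1.06 in arf19-1 and 0.23 in the double mutant (SE 0.12).

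AT2G47550, the other pectin methylesterase gene, had Col signals of 7.22, 6.84 and 6.95 without IAA and 8.48, 8.41 and 8.26 with IAA. In arf19-1 both groups were low, at 6.42, 6.52 and 6.25 without IAA and 7.35, 7.33 and 7.62 with IAA, while nph4-1 gave 6.77, 6.78 and 6.82 without IAA and 7.80, 7.66 and 8.10 with IAA. The responses of the single mutants were nearly the same, 1.07 and 1.04 (SE 0.12) beside 1.38 in Col, and that of the double mutant was 0.20.

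Dehydrins are hydrophilic proteins that accumulate in cold and drought, and 2 of their genes were members with unlike patterns. LTI30, also called XERO2, had Col signals of 7.40, 7.37 and 6.92 without IAA and 9.29, 9.01 and 8.46 with IAA. Its arf19-1 control arrays, at 7.99, 7.75 and 8.08, all lay above the Col control arrays, and its arf19-1 IAA arrays read 9.00, 8.92 and 8.57. Both single mutants had a response of 0.89 (SE 0.19), or 52.8% of that of Col, which is close to the limit of the rule.

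AT4G38410, the other dehydrin gene, kept its whole response in both single mutants. Its log2 signals in Col were 6.76, 7.12 and 7.04 without IAA and 8.89, 8.27 and 8.52 with IAA. In nph4-1 they were 6.87, 7.02 and 6.97 without IAA and 8.72, 8.72 and 8.67 with IAA, and in arf19-1 6.74, 6.82 and 7.07 without IAA and 9.10, 8.75 and 8.93 with IAA. The response of nph4-1 was 110.2% of that of Col, the highest value of nph4-1 among the 37, and that of arf19-1 was 128.9%. The double mutant, with 6.94, 7.05 and 7.44 without IAA and 7.23, 7.67 and 7.70 with IAA, kept 24.6%, just inside the limit, and its control and IAA arrays overlapped.

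The 2 lectin genes, which encode carbohydrate-binding proteins, both kept over 50% of their rise in each single mutant by the rule. AT1G33790, a jacalin-type lectin, had Col signals of 7.17, 6.96 and 6.57 without IAA and 8.89, 9.09 and 8.62 with IAA, nph4-1 signals of 6.73, 6.62 and 6.43 without IAA and 7.54, 7.76 and 7.95 with IAA and arf19-1 signals of 6.39, 7.03 and 6.89 without IAA and 9.03, 8.90 and 8.75 with IAA. It rose 3.91-fold in Col (SE 0.17 in log2), 2.23-fold in nph4-1 and 4.36-fold in arf19-1. AT5G18470, of the mannose-binding type, rose 3.57-fold in Col (SE 0.18 in log2), at least 2.21-fold in nph4-1 and at least 2.83-fold in arf19-1, where 1 control array each lay at the floor. Its double-mutant control arrays, at 6.51, 6.60 and 6.72, were above the 3 Col control arrays, at 5.73, 6.17 and 6.27.

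CP1, also called RD21A-LIKE PROTEASE1, encodes a cysteine protease. Its signals were 6.02, 5.88 and 6.21 without IAA and 7.65, 7.46 and 7.34 with IAA in Col, 6.26, 6.32 and 6.17 without IAA and 7.36, 7.35 and 7.34 with IAA in nph4-1 and 6.08, 6.24 and 6.11 without IAA and 7.15, 6.98 and 6.76 with IAA in arf19-1. Here nph4-1 kept more of the response (76.2%) than arf19-1 (56.7%). The double mutant, at 6.14, 6.37 and 6.32 without IAA and 6.56, 6.72 and 6.37 with IAA, kept 18.8%.

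Among the other genes with a family, AT5G41400, a RING-type zinc finger gene, rose by 1.56 (SE 0.12) in Col, of which nph4-1 kept 70.6%, arf19-1 94.8% and the double mutant 21.7%. AT4G03140, of the short-chain dehydrogenase/reductase family, gave 1.15 (SE 0.13), 0.61, 1.09 and -0.01. The protein kinase gene AT1G33260 gave 1.00 (SE 0.11), 0.63, 0.63 and -0.22. Its double-mutant control arrays read 6.64, 6.68 and 6.78 and its IAA arrays 6.35, 6.59 and 6.49, so the 3 IAA arrays lay below the 3 control arrays.

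Of the 6 genes given here without a family, AT5G62280 had the largest Col response of the 18 genes. Its signals were 7.52, 6.95 and 7.70 without IAA and 9.87, 9.54 and 10.05 with IAA in Col and 6.17, 6.46 and 5.94 without IAA and 7.54, 7.83 and 7.79 with IAA in nph4-1. In arf19-1 they were 6.58, 6.85 and 5.76 without IAA and 9.38, 9.74 and 9.37 with IAA and in the double mutant 5.94, 5.78 and 5.64 without IAA and 6.80, 6.12 and 5.94 with IAA. It rose 5.39-fold in Col (log2 2.43, SE 0.25), 2.88-fold in nph4-1, 8.57-fold in arf19-1 and at least 1.41-fold in the double mutant, where 1 control array lay at the floor. The arf19-1 IAA arrays overlapped those of Col, whereas the arf19-1 control arrays all lay below those of Col.

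AT3G19200 rose 3.59-fold in Col (SE 0.15 in log2), at least 3.25-fold in nph4-1 and at least 3.84-fold in arf19-1, where control arrays again lay at the floor. Its IAA arrays in the single mutants overlapped each other and those of Col. AT1G60010 was bright, with Col signals of 8.95, 9.00 and 9.40 without IAA and 10.44, 10.57 and 10.64 with IAA, and responded by 1.43 (SE 0.13) in Col, 0.90 in nph4-1, 1.38 in arf19-1 and 0.09 in the double mutant. AT3G14560 gave 1.08 (SE 0.14), 0.59, 0.94 and -0.17. AT4G09890 started at the floor on 2 of 3 Col control arrays and on all control arrays of both single mutants, so its responses were at least 1.00 (SE 0.15) in Col, 0.87 in nph4-1 and 1.27 in arf19-1. AT2G41730 had the widest error, with responses of 1.03 (SE 0.30), 0.81, 0.60 and 0.02. Its nph4-1 IAA arrays read 8.11, 6.86 and 8.28, the second of which overlapped the nph4-1 controls at 7.07, 6.46 and 7.30, although within each replicate number IAA minus control was positive, at 1.04, 0.40 and 0.98 in nph4-1 and 0.61, 0.58 and 0.59 in arf19-1. The standard error comes from the fit without replicate numbers. The probe set carries the suffix x_at, which the array maker gives to probes that may also match other transcripts.

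**Figure D2:**
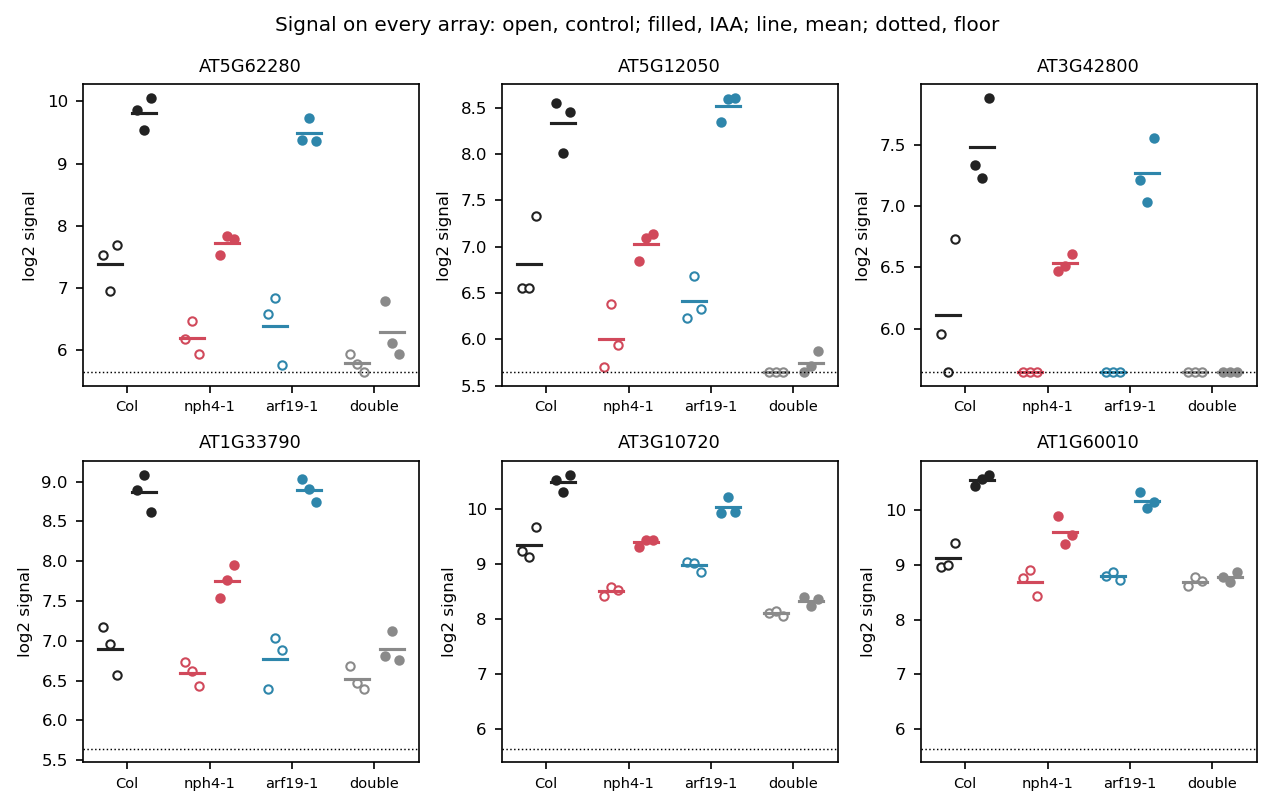
Log2 signal on each of the 24 arrays (vertical axis) by genotype (horizontal axis) for 6 genes. Open points are control arrays, filled points IAA arrays, short lines group means and the dotted line the floor of 5.64. In each of the 6 genes the nph4-1 IAA points lie below the arf19-1 IAA points.

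**Figure D3:**
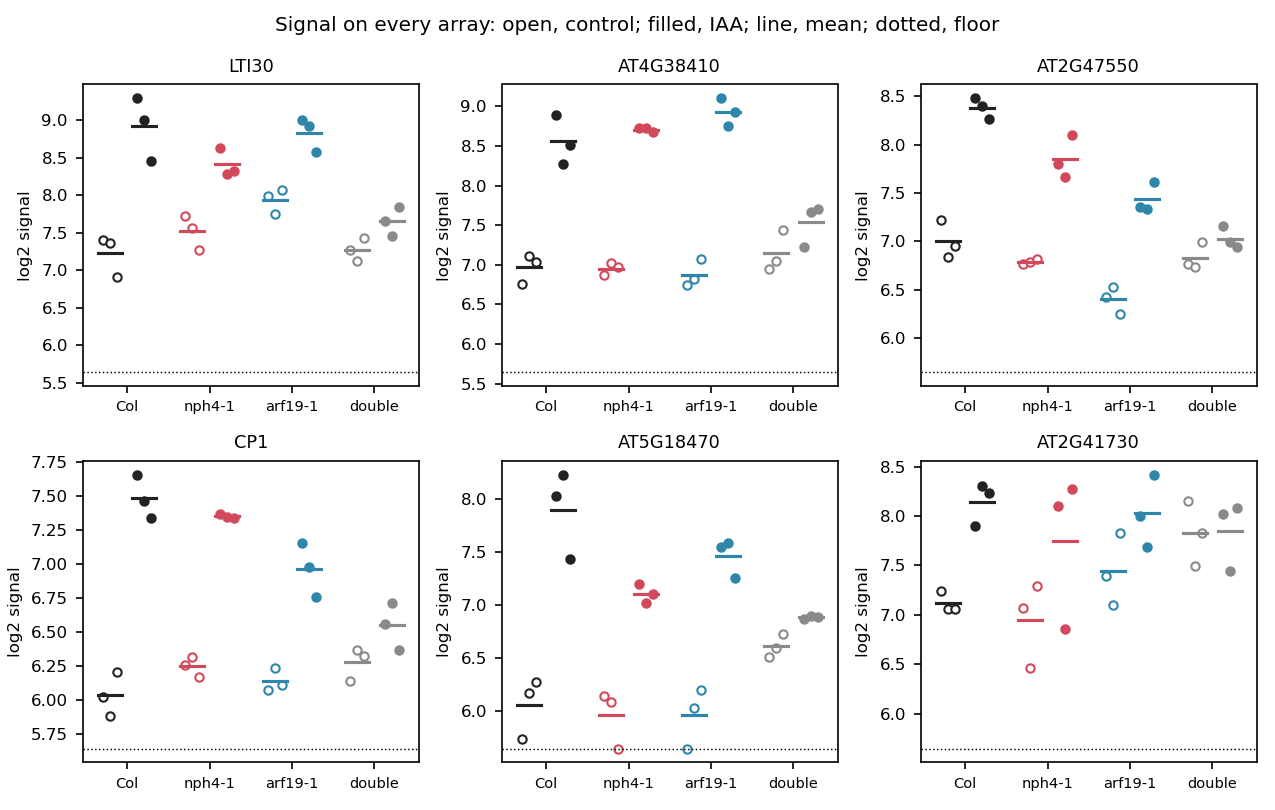
The same plot for 6 further genes, with log2 signal on the vertical axis and genotype on the horizontal axis. CP1 and AT2G47550 have nph4-1 IAA points above those of arf19-1, and AT4G38410 has IAA points of both single mutants at the height of Col or above.

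The 4 largest Col responses belong to probe sets that are not listed in the annotation, which were picked after their values were seen. The first, 262099_s_at, lay at the floor on the Col control arrays and at 11.12, 10.34 and 10.21 with IAA, a rise of at least 30.2-fold (SE 0.25 in log2). Its IAA arrays read 8.45, 9.49 and 9.80 in nph4-1, 11.15, 11.20 and 11.04 in arf19-1 and 6.38, 6.75 and 6.99 in the double mutant. The suffix s_at marks probes shared by several transcripts, so the signal cannot be given to 1 gene. Probe set 248164_at also started near the floor, and rose at least 10.9-fold in Col (SE 0.17 in log2), 8.17-fold in nph4-1, 14.4-fold in arf19-1 and 1.49-fold in the double mutant.

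Probe set 261470_at gave responses of 2.62 (SE 0.14) in Col, 1.67 in nph4-1, 1.53 in arf19-1 and 0.45 in the double mutant, so here both single mutants lay below Col. Probe set 246000_at left the floor on all IAA arrays of Col and both single mutants, by at least 2.48 (SE 0.07), 1.46 and 1.66, and on 1 double-mutant array. The other 15 unlisted probe sets had Col responses from 1.03 to 2.24.

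A comparison of nph4-1 with arf19-1 asked whether the single mutants reached the same level. The rule sets the same limit on both single mutants and so does not fix the direction, but it used these same IAA arrays and limits how far either mutant can fall. The p-values are those of the fit over all probe sets, and the calls below are not independent of the choice of members. With IAA, the signal in nph4-1 was lower than in arf19-1 for 21 of the 37 and higher for 2, by limma across all 24 arrays at an adjusted p under 0.05. The background was 3.7% lower and 5.39% higher among the 15757 probe sets tested. The median difference over the 37 was -0.47 in log2, beside 0.01 over all probe sets. Among the other 254 probe sets that met the Col conditions, which missed another limit or were left out by symbol, 185 were lower in nph4-1 and 8 higher, with a median of -0.87.

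Of the 18 genes, 8 were lower in nph4-1 with IAA. AT5G62280 had the largest difference, with 7.54, 7.83 and 7.79 in nph4-1 and 9.38, 9.74 and 9.37 in arf19-1, a 3.42-fold difference (log2 -1.78, SE 0.25, limma adjusted p = 4.6e-05). The BIG GRAIN 1-like genes AT5G12050 (log2 -1.49, SE 0.19, limma adjusted p = 1.6e-05) and AT3G42800 (-0.74, SE 0.19, adjusted p = 0.015) were both lower. So were the jacalin-type lectin gene AT1G33790 (-1.14, SE 0.17, adjusted p = 0.00011) and the pectin methylesterase gene AT3G10720 (-0.64, SE 0.12, adjusted p = 0.00082). AT1G60010 (-0.57, SE 0.13, adjusted p = 0.0083), AT3G14560 (-0.47, SE 0.14, adjusted p = 0.041) and AT4G03140 (-0.46, SE 0.13, adjusted p = 0.031) followed. In all 8 the 3 nph4-1 arrays lay below the 3 arf19-1 arrays, as they did for 26 of the 37 (background 10.3%).

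The reverse order held for the protease gene CP1 (log2 0.39, SE 0.12, limma adjusted p = 0.037) and the pectin methylesterase gene AT2G47550 (0.42, SE 0.12, adjusted p = 0.034), which were higher in nph4-1. The 2 pectin methylesterase genes thus differed between the single mutants in opposite directions with IAA. Without IAA their differences had the same signs, 0.39 (SE 0.12) for AT2G47550 and -0.47 (SE 0.12) for AT3G10720. The nph4-1 response minus that of arf19-1 was 0.03 (SE 0.17) for AT2G47550 and -0.17 (SE 0.16) for AT3G10720. The remaining 8 genes did not pass in the main limma fit. Of 32 alternatives, AT5G41400 passed in 12, AT4G09890 in 2, and AT5G18470 and LTI30 in 1 each. Among the 8, AT5G41400 had -0.40 (SE 0.12, adjusted p = 0.0501, or 0.0493 with a replicate block), LTI30 -0.42 (SE 0.19) and AT4G38410 -0.22 (SE 0.16). AT3G19200 had -0.05 (SE 0.15) and AT1G33260 -0.04 (SE 0.11), which does not show that the levels were equal.

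Among unlisted probe sets 13 were lower in nph4-1 with IAA. The largest of all 37 was 251017_at, at 9.12, 9.30 and 9.35 in nph4-1 and 11.83, 11.89 and 11.89 in arf19-1, a 6.13-fold difference (log2 -2.61, SE 0.21, limma adjusted p = 1.9e-08). Over the 21 the difference ran from 1.32-fold to 6.13-fold with a median of 1.78-fold.

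Adjusting over all probe sets of the array, those at the floor included, ended the calls of CP1, AT2G47550, AT4G03140 and AT3G14560 (adjusted p of 0.068, 0.058, 0.052 and 0.067). The calls of AT5G62280, AT5G12050, AT1G33790 and AT3G10720 held in all 32 alternatives, with adjusted p of at most 0.016. A fit of only the 6 arrays compared ended those of CP1, AT2G47550, AT1G60010, AT4G03140 and AT3G14560 (adjusted p of 0.12, 0.17, 0.077, 0.057 and 0.0505). Leaving out 1 nph4-1 IAA array ended the calls of CP1 (any of the 3), AT2G47550 (1 or 3), AT4G03140 (1 or 2), AT3G14560 (2 or 3), AT1G60010 (2) and AT3G42800 (1). Leaving out 1 arf19-1 IAA array ended those of CP1 (2 or 3), AT2G47550 (1 or 2), AT4G03140 (1 or 3), AT3G14560 (any of the 3), AT1G60010 (1) and AT3G42800 (3). The adjusted p over these omissions reached 0.23 for CP1, 0.15 for AT2G47550, 0.17 for AT4G03140, 0.13 for AT3G14560, 0.0598 for AT1G60010 and 0.101 for AT3G42800. AT3G14560 was also lost, at an adjusted p of at most 0.0518, without nph4-1 control 1, double-mutant control 3 or double-mutant IAA 2.

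**Figure D4:**
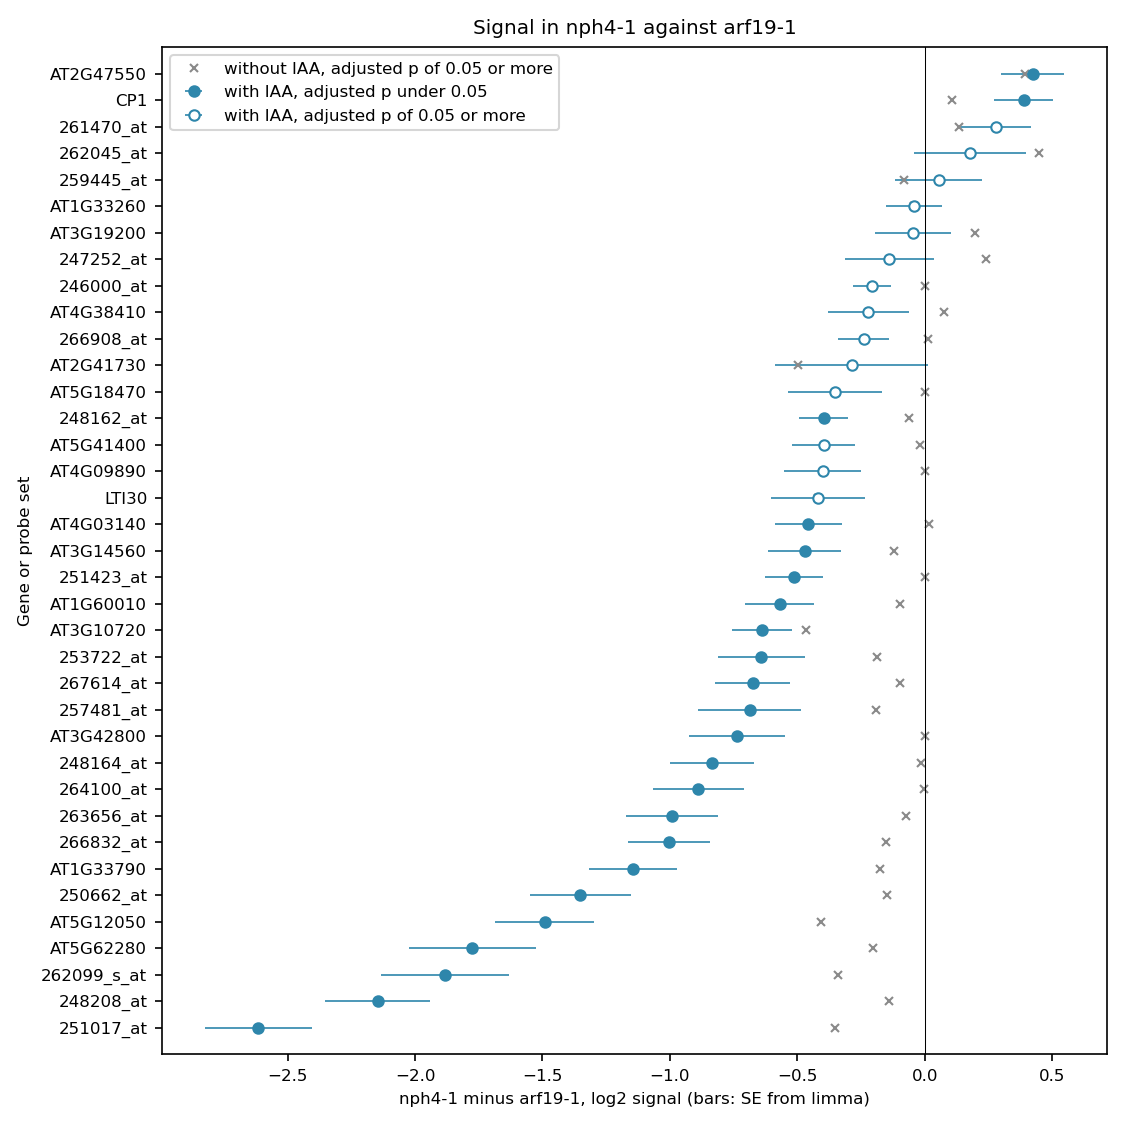
Log2 signal of nph4-1 minus that of arf19-1 (horizontal axis) for the 37 probe sets (vertical axis), 3 arrays per group. Circles are IAA arrays with standard errors, filled where the limma adjusted p was under 0.05, and crosses are control arrays. Of the 23 filled circles 21 lie to the left of 0 and 2 to the right, while every cross lies between -0.50 and 0.45.

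Without IAA, none of the 37 differed between nph4-1 and arf19-1 in limma, and 22 of all probe sets did, 0.0825% lower and 0.0571% higher. The rule used these control arrays too, so this result is not independent of the choice of members. At an unadjusted limma p under 0.05 there were 4 of the 37, beside a background of 3.71%. The other 254 probe sets that met the Col conditions had 33, a larger share than among the 37. The 4 members were LTI30 (log2 -0.42), AT5G12050 (-0.41), AT2G47550 (0.39) and AT3G10720 (-0.47, adjusted p = 0.22, the lowest). Differences over the 37 ran from -0.50 to 0.45 with a median of -0.06. With array quality weights 3 were higher and 5 lower, and without Col control 3, 1 was lower.

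In whole seedlings, fewer cells of a type and less RNA per cell cannot be told apart. The summed signal of the 2 shoot genes was 11736 to 13735 on the nph4-1 IAA arrays and 12383 to 13580 on those of arf19-1, and that of the 3 root genes 8036 to 8809 and 7930 to 8916. Both ranges overlap between the single mutants with IAA, but PYK10 makes up most of the root sum, with means of 12.96 in nph4-1 and 12.92 in arf19-1. The root hair expansin genes had lower means in nph4-1 than in arf19-1 with IAA, 7.38 against 7.99 for EXPA7 and 7.70 against 8.20 for EXPA18. Their means were also lower in nph4-1 without IAA, 7.46 against 7.67 for EXPA7 and 7.81 against 8.28 for EXPA18. The part of these markers in the differences between the single mutants was not tested.

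The levels relative to Col without IAA are also a description, because the rule used these control arrays. It favours low Col control arrays. Its single-mutant limits also favour low controls in nph4-1 and arf19-1, and its double-mutant limit favours high controls in the double mutant. Without IAA 29 of the 37 lay below Col in nph4-1, 29 in arf19-1 and 26 in the double mutant. The medians were -0.27, -0.27 and -0.22 in log2, beside 0.00, 0.01 and 0.00 over all probe sets. Among the other 254 probe sets that met the Col conditions they were -0.02, 0.00 and -0.03. Col control 3 was the highest Col control array for 21 of the 35 members above the floor there. Without it the medians of nph4-1 and arf19-1 over the members moved to -0.16 and -0.15.

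A few genes stood well below Col without IAA in the double mutant. AT5G62280 (log2 -1.60), AT3G10720 (-1.24), AT5G12050 (-1.17) and the unlisted 251017_at (-1.70) and 248208_at (-1.21) were lower by at least 1. All 3 double-mutant control arrays of AT5G12050 and 248208_at and 1 of AT5G62280 lay at the floor, so these 3 differences are limits and their order is not known. In all 5 the nph4-1 and arf19-1 control means were also below Col. For AT5G62280 these differences were -1.20 in nph4-1 (SE 0.25) and -0.99 in arf19-1. Probe set 251017_at read 9.36, 9.04 and 9.91 in Col, 8.19, 8.18 and 7.74 in nph4-1, 8.38, 8.86 and 7.92 in arf19-1 and 7.78, 7.72 and 7.71 in the double mutant. The arrays of each mutant lay below the 3 Col arrays. The opposite was seen in AT2G41730 (0.71) and AT5G18470 (0.55), whose double-mutant controls were above Col, and the other 30 members lay between these.

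With IAA added, the double mutant did not reach the Col control level for part of the members. The 3 double-mutant IAA arrays lay below the 3 Col control arrays for 8 of the 37 (background 11.2%, with arrays that the rule used). These 8 were AT5G62280, AT5G12050, AT3G10720, AT3G14560, AT1G60010, AT4G03140, 251017_at and 248208_at. For AT3G14560 the double-mutant IAA arrays read 6.14, 5.93 and 5.92, beside 7.09, 6.79 and 7.40 on the Col control arrays.

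Root markers without IAA are given beside these levels. EXPA7 had a mean of 6.76 in the double mutant and 7.40 in Col, EXPA18 7.29 and 7.92, and PYK10, a root beta-glucosidase, 12.82 and 12.70. The summed root signal was 7096 to 7989 in the double mutant and 6805 to 7698 in Col, and the shoot sum 13217 to 14064 and 12545 to 14774. Their part in the levels above was not tested.

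A response larger than that of Col can come from a lower control level, a higher IAA level or both, so splitting the members by it favours low controls by construction. For the 17 probe sets with a larger response in arf19-1, the control level was below Col for 15 (median -0.37 in log2) and the IAA level differed by a median of 0.01. For the other 20 the control level was below Col for 14, and the medians were -0.22 without IAA and -0.44 with it. AT5G12050 had -0.40 without and 0.18 with IAA, and 251017_at -1.05 and 0.19. AT4G38410 differed in that its arf19-1 control lay close to Col (-0.09) and its IAA level above (0.37).

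**Figure D5:**
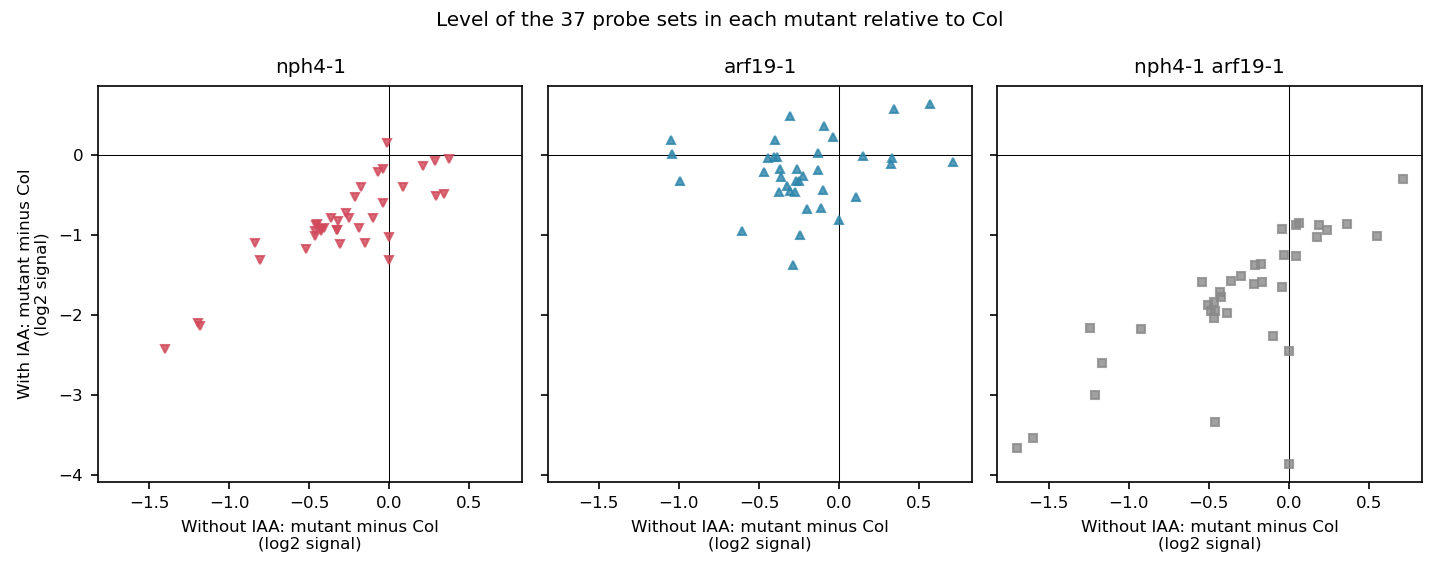
Level of the 37 probe sets in nph4-1, arf19-1 and the double mutant minus that in Col, without IAA (horizontal axis) and with IAA (vertical axis), both in log2. Every double-mutant point lies below 0 on the vertical axis, whereas the median of arf19-1 there is -0.19 and that of nph4-1 -0.88.

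The values next to each limit of the rule were as follows. On the Col limit, AT1G33260 (1.00), AT4G09890 (1.00) and 253722_at (1.03) lay inside and AT5G40540, WRKY53 and 253062_at (0.98 each) outside. WRKY53 is also left out by symbol, so it could not have been a member at any response. Next to the nph4-1 limit of 50% were 253722_at (50.4%), 248208_at (50.8%) and LTI30 (52.8%) inside, and AT3G28850 (49.9%), 253791_at (49.75%) and 266663_at (49.74%) outside. The arf19-1 limit had LTI30 (52.8%), 259445_at (55.6%) and CP1 (56.7%) inside and 260152_at (47.8%), AT3G51410 (45.2%) and PUCHI (20.6%) outside. At the double-mutant limit of 25%, AT4G38410 (24.6%), 250662_at (24.5%) and AT3G19200 (23.3%) lay inside, and AT4G22530 (25.2%), AT1G03820 and ATPMEPCRB (25.3% each) outside.

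Membership moved with single arrays. Leaving out 1 array gave from 32 to 43 probe sets, with 29 to 37 of the 37 among them, and 16 stayed in each of the 24 omissions. Of the genes, AT1G33790, AT5G18470, AT5G41400, AT5G12050, AT1G60010, AT2G47550, AT3G42800 and AT3G10720 were among those 16. LTI30 was lost in 8 omissions, and AT3G14560 and AT2G41730 in 6 each.

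Genes next to the members on the chromosome, by the order of protein-coding genes in RefSeq, were looked at because the rule did not use them. A tested neighbour was found for 7 of the 18 genes, 10 neighbours in all, and none was itself a member. With IAA in Col 1 rose and 1 fell in limma, beside backgrounds of 6.33% and 6.52%, and their median was -0.08. Both flank the pectin methylesterase gene AT2G47550. AT2G47560 rose by 0.61 (SE 0.12, adjusted p = 0.0012) and AT2G47540 changed by -0.70 (SE 0.15, adjusted p = 0.002). The 2 neighbours of AT5G18470 had -0.28 (SE 0.14) and -0.04 (SE 0.04), and did not pass.

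The wider auxin pathway was little covered by the annotation. None of the listed genes of auxin perception (21 listed) or of response factors and corepressors (25) had a paired probe set, and they were not analysed here. None of the 18 members paired with a gene was in these lists. The other 19 members are not listed in the annotation, so they could not be matched to the lists. Of 3 tested ethylene genes 2 rose in Col. ARL, an organ growth gene, rose by 1.34 (SE 0.21, limma adjusted p = 7.8e-05), and had 0.66 (SE 0.21) in the double mutant. EIN3 did not pass, at 0.15 (SE 0.17). The auxin transport gene WAG2, the homeodomain gene HAT2 and the lateral root gene PUCHI, each the only tested gene of its list, rose in Col, and the synthesis gene YUC6 fell. Of 2 other hormone genes RR16, a cytokinin response regulator, rose by 0.31 (SE 0.07, adjusted p = 0.005) and ARR15 had 0.00. Of these 9 genes, 6 rose and 1 fell in Col (backgrounds of 6.33% and 6.52%). In nph4-1, 3 rose and none fell (backgrounds of 1.72% and 0.8%), and 6 rose and 1 fell in arf19-1 (backgrounds of 4.89% and 5.22%). In the double mutant HAT2 alone passed (0.56, SE 0.11, limma adjusted p = 0.026), beside backgrounds of 0.336% higher and 0.0825% lower.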

How the data were processed

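The authors deposited 1 log2 signal per probe set and array, with a floor of 50 in linear units. How arrays were summarised and scaled is not given in the sources used here. The 64 control probe sets and those at the floor on all 24 arrays were left out of the tests, which left 15757 of 22746. Gene names came from the platform annotation (13513 probe sets with 1 gene, 503 with several, 8794 not listed) and gene order from RefSeq's TAIR10.1 table, which held 13436 of the 13513. Families not in these tables are background knowledge. Promoters were not analysed here.

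A model of the 8 group means was fitted with limma 3.58.1 in R 4.3.3 (eBayes with trend and robust, 16 residual degrees of freedom), two-sided, with Benjamini-Hochberg adjustment at 0.05. Standard errors come from this fit. For the 37, only nph4-1 against arf19-1 was tested. The responses were not tested, because the rule used them. This contrast shares its arrays with those responses, so its calls are not independent of the choice of members. Members and gene lists were chosen with earlier results of these data known. All 18 members with 1 gene are named. Same-numbered arrays of nph4-1 and arf19-1 deviated together from their group means (correlations of 0.229 to 0.58 without IAA and 0.162 to 0.317 with it), so the numbers may pair the samples. The fit above has no replicate term, and the replicate block is an alternative. Alternatives were quantile normalization, equal medians, a filter on dim probe sets, no filter, plain eBayes, a fit of the arrays compared, a replicate block, array weights, other limits of the rule, and leaving out each array.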

Additional observations from a re-analysis of the deposited data

How the results depend on the processing

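The number of probe sets under the rule stayed within 1.5 times of 37 in all alternatives but 2, with 20 at a single-mutant limit of 0.6 and 60 at 0.4, and ran from 32 to 43 over omissions of 1 array. Of 22 probe sets called between nph4-1 and arf19-1 without IAA (13 lower and 9 higher), a fit of the 6 arrays compared left 10 (6 and 4), array quality weights gave 1944 (940 and 1004), and omissions of 1 array gave 14 to 30 (9 to 17 and 4 to 13). Of the 37, array weights called 5 lower and 3 higher there, and omissions 0 to 1 lower. With IAA, 1432 were called (583 lower and 849 higher), 854 in the fit of 6 arrays (382 and 472), 2760 with array weights (1099 and 1661) and 949 to 1621 over omissions (414 to 647 and 527 to 974). With the replicate block 1586 were called, 22 of the 37 lower and 2 higher. The block, 1 of 12 alternatives that called AT5G41400, added that call (adjusted p = 0.0493). It ended none among the named genes and changed no count by over 1.5 times. The 21 members lower in nph4-1 numbered 15 to 22 over omissions and 15 in the fit of 6 arrays. The 2 higher ones numbered 0 with all probe sets adjusted over and in the fit of 6 arrays, and 0 to 2 over omissions. Over omissions the difference ran across 0 for 3 genes that were not called, from -0.198 to 0.0555 for AT3G19200 (above 0 without nph4-1 IAA 1 or arf19-1 IAA 1 or 3), from -0.552 to 0.158 for AT2G41730 and from -0.107 to 0.0261 for AT1G33260 (both above 0 without nph4-1 IAA 2). The median Col response was 1.40 to 1.68 over omissions and 1.68 without both arrays that stood apart. Without those 2, the medians of nph4-1 and arf19-1 against Col without IAA were -0.16 and -0.15, and over omissions they ran from -0.30 to -0.16 and from -0.30 to -0.15. The cause of these shifts was not tested. Signals near the floor limit the members that start there.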
